A study of Mus musculus with 14 samples.

Results

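The Cd209 lectins are the mouse relatives of human DC-SIGN (CD209), and their 5 genes followed here are Cd209a, Cd209b, Cd209c, Cd209d and Cd209e. They were chosen by gene symbol, with an earlier reading of these same data known, and all 5 are listed in both deposited tables, among 24980 genes in the dendritic cell table and 17118 in the table of monocytes and macrophages. Their levels after PAM3CSK4 were part of that earlier reading, so the values of that contrast are given as a description, with no test of the 5 genes. Bulk RNA sequencing covered 14 libraries, each made from flow-sorted mouse bone marrow cells. The donors were Cx3cr1 gfp/+ mice according to the extraction protocol, which carry 1 GFP copy at the locus of the fractalkine receptor, whereas the design text calls the treated mice wildtype. The dendritic cell gate took cells with high GFP, high MHC class II and high CD11c that lacked Gr-1 and B220. Dendritic cell libraries came from mice that received vehicle (4 libraries) or PAM3CSK4 once (4 libraries), a lipopeptide ligand of Toll-like receptors 1 and 2. The monocyte gate (3 libraries) asked for high GFP and CD115 and no B220 and pooled cells of low and high Gr-1, and the macrophage gate (3 libraries) asked for CD169 and high MHC class II and no GFP, Gr-1 or B220. Both of these populations were collected at baseline. The labels give no dose, time after the dose, age or sex, and do not say whether libraries came from separate mice, so p-values here measure only the spread between libraries.

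Proteins of this family sit on the cell surface as type II transmembrane lectins. Human DC-SIGN binds mannose-rich and fucosylated glycans in a calcium-dependent way, so that dendritic cells and macrophages can capture pathogens and bind other cells. The mouse members need not all share that preference. CD209a (also called CIRE or mouse DC-SIGN) is known from conventional and monocyte-derived dendritic cells and from monocytes. CD209b (SIGNR1) is known from marginal zone and lymph node macrophages, where it captures bacterial polysaccharides. CD209c, CD209d and CD209e are also known as SIGNR2, SIGNR3 and SIGNR4, and of these CD209d is the one described with an ITAM-like signalling motif.

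The 5 genes form a tandem cluster on the minus strand of mouse chromosome 8 (build mm10, positions as deposited). Cd209a lies at chr8:3743395-3748984, Cd209e at chr8:3847973-3854286, Cd209d at chr8:3871824-3878499, Cd209b at chr8:3917655-3926841 and Cd209c at chr8:3940222-3946863. Further along lie the paralogues Cd209f (chr8:4102793-4105764, minus strand) and Cd209g (chr8:4134736-4137707, plus strand), which are not among the 5.

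The promoters of 3 members share a run of letters that the other promoters of the cluster lack, and promoters are shown here because the 5 members were lower together after PAM3CSK4 while Cd209f and Cd209g were higher. RefSeq promoters (build GRCm38.p6) were matched by symbol for all 7 Cd209 genes, and each was searched from 250 bases before to 50 after the start. The windows below run from 250 bases before to 30 bases after the start, 5′ to 3′ on the strand of the gene. In Cd209a, Cd209d and Cd209e the capitals mark TTTCTCTTCCTA, the longest run these 3 share, in Cd209b and Cd209e they mark ATAAAAGCTGT, the longest run that both share with Cd209a, and in Cd209f they mark the match to the AP-1 motif TGANTCA.
Cd209a (chr8:3748955-3749234, minus strand): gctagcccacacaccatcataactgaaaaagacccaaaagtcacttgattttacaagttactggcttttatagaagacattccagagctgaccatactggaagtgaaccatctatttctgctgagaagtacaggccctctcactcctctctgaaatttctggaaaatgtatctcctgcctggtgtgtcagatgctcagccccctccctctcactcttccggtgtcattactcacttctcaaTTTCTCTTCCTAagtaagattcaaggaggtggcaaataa
Cd209d (chr8:3878470-3878749, minus strand): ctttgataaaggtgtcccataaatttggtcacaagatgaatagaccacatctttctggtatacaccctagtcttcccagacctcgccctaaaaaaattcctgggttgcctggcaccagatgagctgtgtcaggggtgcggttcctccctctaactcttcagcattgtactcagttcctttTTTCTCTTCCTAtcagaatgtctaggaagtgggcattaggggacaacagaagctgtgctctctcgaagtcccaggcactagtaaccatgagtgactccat
Cd209e (chr8:3854257-3854536, minus strand): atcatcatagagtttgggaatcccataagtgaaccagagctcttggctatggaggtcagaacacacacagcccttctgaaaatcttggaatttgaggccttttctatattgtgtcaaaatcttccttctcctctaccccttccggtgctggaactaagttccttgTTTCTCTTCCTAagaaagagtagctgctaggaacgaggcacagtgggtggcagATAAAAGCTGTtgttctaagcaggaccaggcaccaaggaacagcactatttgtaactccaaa
Cd209b (chr8:3926812-3927091, minus strand): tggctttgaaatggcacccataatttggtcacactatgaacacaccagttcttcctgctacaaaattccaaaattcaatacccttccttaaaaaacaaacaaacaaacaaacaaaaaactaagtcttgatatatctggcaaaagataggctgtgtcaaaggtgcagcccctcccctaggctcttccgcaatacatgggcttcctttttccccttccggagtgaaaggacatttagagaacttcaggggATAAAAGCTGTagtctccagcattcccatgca
Cd209f (chr8:4105735-4106014, minus strand): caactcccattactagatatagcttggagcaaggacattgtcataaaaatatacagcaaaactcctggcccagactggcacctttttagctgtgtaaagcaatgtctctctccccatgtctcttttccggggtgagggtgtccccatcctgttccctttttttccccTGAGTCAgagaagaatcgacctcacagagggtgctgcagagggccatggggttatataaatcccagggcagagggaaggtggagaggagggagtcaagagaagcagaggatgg

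TTTCTCTTCCTA starts at base -9 of Cd209a, -70 of Cd209d and -85 of Cd209e, and 9 of 32851 mouse promoter windows (0.0274%) hold it on either strand. Its first 10 bases, TTTCTCTTCC, are a reverse-strand match to the composite ETS-IRF motif (GGAA and GAAA with any 2 bases between), which 2.72% of windows hold. ATAAAAGCTGT starts at base -2 of Cd209b, at base -32 of Cd209e and at base 27 of Cd209a, where it runs past the window printed, and 9 windows hold it. Both runs were picked after the sequences were seen, and the longest run of any 3 genes is rare by its choice. The AP-1 motif TGANTCA was found in 0 of the 5 members on either strand, and in Cd209f (base -83) and Cd209g (base -97), against 7.81% of windows. Cd209f and Cd209g have a run of 180 bases in common, which holds both AP-1 matches, so these are 1 shared sequence and not separate finds. The longest run that Cd209c has in common with any of the other 6 promoters is 8 bases. Whether the Cd209c window, which is not printed, lies in repeated sequence was not tested. Other motifs searched on both strands were the PU.1 motifs GAGGAA (28.3% of windows) and AGGAAGT (9.35%) and an NF-kB motif (GGGA and CC with any 4 bases between, 20.7%), each found in Cd209d alone among the 7 genes. The C/EBP motif TTGCNNAA (10.8%) was found in Cd209b alone and the STAT6 motif (TTC and GAA with any 4 bases between, 6.95%) in Cd209e alone. In Cd209e the STAT6 match overlaps TTTCTCTTCCTA, and in Cd209d the GAGGAA and NF-kB matches overlap each other. A match of letters is a description and not a binding site.

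The 4 PAM3CSK4 libraries do not form an even group. Replicate 4 correlated with the other 7 dendritic cell libraries at 0.826 to 0.894 (Pearson, log2 values across genes). It held 11400 CPM (reads scaled to a common library total, not divided by gene length) over 10 neutrophil markers, against 405 to 1467 in the other 7, and 858 CPM over 10 dendritic cell markers. The dendritic cell sum was 7669 to 10180 CPM with vehicle and 4222 to 4883 CPM in PAM3CSK4 replicates 1 to 3, with no marker of the list at 0 in every library of a group. Most of the vehicle sum was Cd74 and H2-Ab1, with means of 4983 and 2504 CPM, against 1757 and 885 CPM with PAM3CSK4. Sirpa, Cd1d1 and Ccr7 had higher means with PAM3CSK4 and the other markers of the list lower ones. In that list 1 marker rose (Cd1d1) and 1 fell (Zbtb46), and of 9 neutrophil markers tested 1 rose (Mmp8), or 0 without vehicle replicate 1 and 6 without PAM3CSK4 replicate 1. Monocyte markers summed to 1623 to 2351 CPM with vehicle and 863 to 1268 CPM with PAM3CSK4, with 3 of 11 lower. Of plasmacytoid markers 3 of 7 tested rose (58.6 to 78.5 CPM with vehicle, 52.2 to 309 CPM with PAM3CSK4), and of erythroid markers 2 of 4 (4.32 to 74.4 and 51.2 to 543 CPM). Of all genes tested in dendritic cells, 2.82% were called higher after PAM3CSK4 and 2.29% lower. The part of these markers in the values of the Cd209 genes was not tested. In macrophages, all 8 markers of B and plasma cells were higher than in monocytes (481 to 7817 against 11.1 to 25.6 CPM), as were 3 of 4 markers of NK and T cells (77.0 to 255 against 10.3 to 21.5 CPM) and 5 of 5 erythroid markers (35.7 to 303 against 1.51 to 29.4 CPM), while 6 neutrophil markers were higher and 3 lower. The 11 macrophage markers summed to 260 to 407 CPM there, against 93.3 to 305 CPM in monocytes, and Xcr1 and Clec9a, markers of a dendritic cell subset, had means of 83.5 and 82.8 CPM in macrophages. Of all genes tested there, 12.8% were called higher in macrophages than in monocytes and 7.42% lower. The marker sums are of whole libraries, in which fewer cells of a type and less RNA per cell cannot be told apart.

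With vehicle, Cd209a was by far the most abundant member. Its levels were 404, 443, 394 and 323 CPM in vehicle replicates 1 to 4, or 28919, 16798, 15441 and 19340 reads if 1 step of the values is 1 read. It held 87.2% to 92.9% of the CPM of the 5 genes. Per kilobase of exon, to compare genes of different length, Cd209a stood at 247 ± 31.5 CPM per kb (SD, n = 4). Cd209d followed at 12.6 ± 2.81 and Cd209c at 11.8 ± 7.09 CPM per kb, and then Cd209e at 3.48 ± 2.06 and Cd209b at 2.5 ± 1.5 CPM per kb. Cd209d and Cd209c overlapped in their ranges, as did Cd209e and Cd209b, so the order within these pairs is not resolved by 4 libraries. The members also differed in how even they were across vehicle libraries. The coefficient of variation was 12.8% for Cd209a and 22.3% for Cd209d, and 59.3% to 61.9% for Cd209e, Cd209c and Cd209b.

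After PAM3CSK4, Cd209a was at 9.64, 1.70, 1.16 and 0 CPM in replicates 1 to 4, against the 323 to 443 CPM of the vehicle libraries. The highest PAM3CSK4 library thus lay far under the lowest vehicle library. The mean went from 391 ± 49.9 to 3.12 ± 4.40 CPM (SD, n = 4 each), a log2 change of -7.12 ± 0.54 (SE, on log2(CPM + 1), where this and all further log2 changes stand). The fall of Cd209a ranked 1 of the 11377 genes tested in that comparison. Summed over libraries, 694 reads remained beside 80498, a pooled ratio of 0.960% with a 95% interval of 0.89% to 1.03% for counting error only. In replicate 4, which is listed at 0, a count of 0 allows up to 0.0459 CPM. Without replicate 4 the log2 change was -6.62, and without replicate 1, the library that kept most, it was -7.76.

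Cd209c, the second by CPM, was at 37.2, 13.4, 13.8 and 13.8 CPM with vehicle. After PAM3CSK4 it was at 0.615, 0.283, 0.760 and 0.0766 CPM. Vehicle replicate 1 stood apart from 3 libraries that were nearly equal, and all 4 PAM3CSK4 libraries lay under 1 CPM. The log2 change was -3.72 ± 0.34, and -3.38 without vehicle replicate 1.

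Cd209d was the most even of the low members, at 9.51, 9.28, 14.5 and 10.2 CPM with vehicle. The PAM3CSK4 libraries held 0.521, 0.213, 0.264 and 0 CPM. Its log2 change was -3.24 ± 0.24, and leaving out any 1 library gave -3.34 to -3.11. Cd209e was at 3.00, 6.22, 11.3 and 4.15 CPM with vehicle. With PAM3CSK4 it was at 0.442, 0.283, 0.198 and 0 CPM, a log2 change of -2.42 ± 0.33. In both genes PAM3CSK4 replicate 1 was the highest and replicate 4 the lowest of its group, and no PAM3CSK4 library reached the range of the vehicle libraries.

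Cd209b, which encodes the marginal zone lectin SIGNR1, was at 9.72, 5.10, 1.86 and 4.46 CPM with vehicle. After PAM3CSK4 replicate 1 held 0.0463 CPM, or about 3 reads, and replicates 2, 3 and 4 were listed at 0. The pooled ratio of 3 to 1229 reads was 0.272% (95% interval 0.056% to 0.796%). Its log2 change was -2.48 ± 0.35, on a scale whose added 1 CPM understates the change of low genes. On pooled reads, with nothing added, Cd209b kept the smallest share of the 5 genes. In vehicle replicates 1, 2 and 3 the values of Cd209b are not whole multiples of 1 read, so its read numbers there are rounded.

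**Figure D1:**
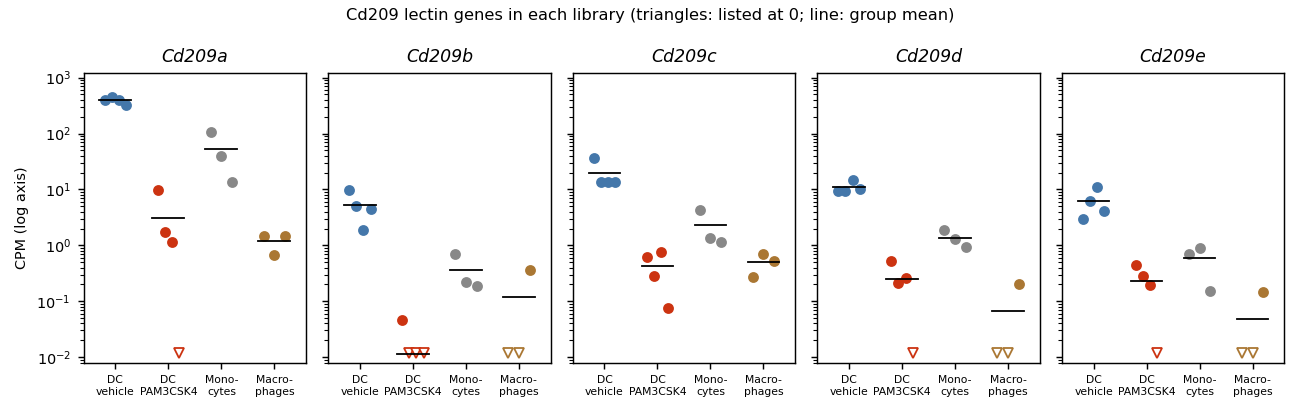
Level of each of the 5 Cd209 genes in every library, in CPM on a log axis, for dendritic cells (DC) with vehicle or PAM3CSK4 and for monocytes and macrophages at baseline. Points are libraries, lines are group means and open triangles at the bottom are libraries listed at 0. Every vehicle library of each gene lies above every PAM3CSK4 library. Dendritic cells and the other populations come from tables normalized separately.

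The share of the vehicle level that was left differed from member to member. On pooled reads it was 0.960% for Cd209a and 0.272% for Cd209b, but 1.84% for Cd209c (95% interval 1.45% to 2.31%), 2.37% for Cd209d (1.73% to 3.16%) and 4.10% for Cd209e (2.94% to 5.58%). The counting interval of Cd209a lay under those of Cd209c, Cd209d and Cd209e, while the library spread within PAM3CSK4 was wider than these gaps. For Cd209a, replicate 1 alone kept 2.46% of the vehicle mean and supplied 611 of the 694 reads. Replicate 1 was also the highest PAM3CSK4 library for Cd209b, Cd209d and Cd209e, and replicate 3 was the highest for Cd209c. Replicate 4, the library high in neutrophil markers, was the lowest or tied for the lowest in all 5 genes. With the other 3 PAM3CSK4 libraries alone the 5 log2 changes were -6.62, -2.48, -3.60, -3.14 and -2.33 for Cd209a to Cd209e in order of letter. The part of cell makeup in the values of any PAM3CSK4 library was not tested.

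**Figure D2:**
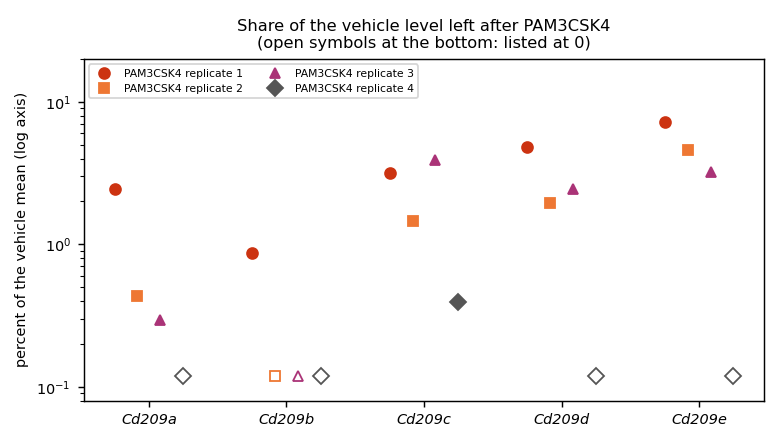
Level in each PAM3CSK4 library as a percent of the vehicle mean of the same gene, on a log axis, with 1 symbol per library and open symbols at the bottom for libraries listed at 0. Replicate 1 is the highest for Cd209a, Cd209b, Cd209d and Cd209e, and replicate 4 is the lowest, or level with others at 0, for each gene.

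In all 5 members the PAM3CSK4 libraries lay below the vehicle libraries without overlap. Of all 11377 genes tested, 4.68% did so, and 2.29% were called lower by limma with Benjamini-Hochberg adjustment (5.12% in either direction). Nothing is read from this count, since the 5 genes were chosen with this contrast known. None of them would have entered the test through its PAM3CSK4 libraries alone. The median log2 change of the 5 was -3.24, beside 0.20 over all genes tested. Only 0.299% of the genes tested, 34 in number, fell as far on this scale as Cd209e, the member with the smallest change. The sum of the 5 genes went from 463, 477, 436 and 356 CPM with vehicle to 11.3, 2.48, 2.38 and 0.0766 CPM with PAM3CSK4.

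Cd209f and Cd209g, the paralogues at the far end of the cluster, were higher after PAM3CSK4. Cd209f was at 1.82, 0.527, 0.128 and 0.476 CPM with vehicle and at 2.94, 2.75, 2.09 and 6.32 CPM with PAM3CSK4. Its log2 change was 1.39 ± 0.34. Cd209f would not have passed the filter through its vehicle libraries, of which only replicate 1 reached 1 CPM, so its values are a description. The limma fit called it higher, as it did 2.82% of genes, and nothing is read from that call. The call was lost without any of 5 of the 8 libraries (vehicle replicates 2, 3 and 4 and PAM3CSK4 replicates 2 and 3). It was also lost with rescaled totals, median centring, quantile normalization, a pseudocount of 5 or no filter. Cd209g was at 0, 0.185, 0 and 0.192 CPM with vehicle and at 1.49, 0.862, 0.618 and 1.32 CPM with PAM3CSK4. It stayed under the filter and was not tested (log2 change 0.91 ± 0.15). The groups of both genes did not overlap, as for 10.1% of genes tested in the upward direction. Of 50-base words in its exons, Cd209f shares 29.8% with Cd209g, and the values of each gene are fractions of a read that add up to 280.95, 102.04, 82.00 and 499.2 reads in PAM3CSK4 replicates 1 to 4, nearly whole in replicates 1 to 3. Reads from the shared stretches cannot be assigned to 1 of the 2 genes, so the sum is given as well. That sum was 1.82, 0.712, 0.128 and 0.669 CPM with vehicle and 4.43, 3.61, 2.71 and 7.64 CPM with PAM3CSK4. The 5 members share no 50-base word with each other or with Cd209f and Cd209g.

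**Figure D3:**
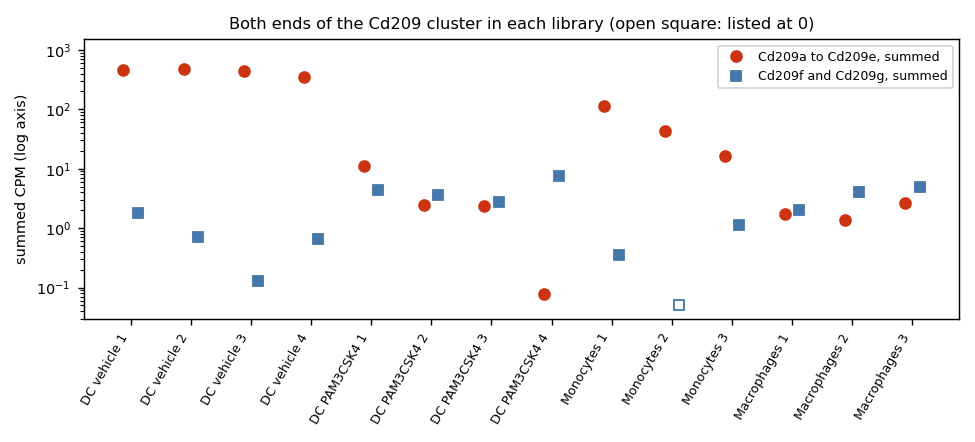
Summed CPM of Cd209a to Cd209e (circles) and of Cd209f and Cd209g (squares) in each of the 14 libraries, on a log axis; the open square marks a sum listed at 0. The circles lie above the squares in all vehicle and monocyte libraries and below them in PAM3CSK4 replicates 2, 3 and 4 and in all 3 macrophage libraries.

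Monocytes held Cd209a at 106, 40.0 and 13.7 CPM in replicates 1 to 3, and macrophages held 1.47, 0.675 and 1.45 CPM. The groups did not overlap, with a log2 change of -4.21 ± 0.56 from monocytes to macrophages, given as a description since it was known when the family was chosen. Monocyte libraries differed by 7.75-fold among themselves, far more than the 1.37-fold range of the vehicle dendritic cell libraries. The order of the monocyte libraries was that of 10 dendritic cell markers summed (3353, 905 and 728 CPM), with H2-Ab1, an MHC class II gene, at 596, 75.8 and 42.2 CPM and the lectin Clec10a at 57.9, 22.3 and 17.6 CPM. Whether these markers bear on the Cd209a level of replicate 1 was not tested, and without that library the log2 change was -3.51. Macrophage libraries had 1871 to 3293 CPM over the same 10 markers.

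Cd209c was at 4.35, 1.36 and 1.13 CPM in monocytes and at 0.269, 0.704 and 0.532 CPM in macrophages. It was the only other member that passed the filter of 1 CPM in 3 libraries, which it did through monocytes alone, so its values are given as a description too. The 3 macrophage libraries lay below every monocyte library, and monocyte replicate 1 was well above the other 2. The log2 change was -1.01 ± 0.37, and -0.59 without monocyte replicate 1.

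Cd209b, Cd209d and Cd209e were under the filter in these populations and were not tested. Cd209d was at 1.89, 1.30 and 0.938 CPM in monocytes, and at 0, 0 and 0.199 CPM in macrophages. Cd209e was at 0.707, 0.901 and 0.150 CPM in monocytes, and at 0, 0 and 0.146 CPM in macrophages, where the highest macrophage library nearly met the lowest monocyte library. Cd209b was at 0.690, 0.220 and 0.188 CPM in monocytes and at 0, 0 and 0.359 CPM in macrophages, so its groups overlapped. For macrophage replicates 1 and 2 a count of 0 allows up to 0.0898 and 0.044 CPM. Without overlap, 4 of the 5 members were lower in macrophages, against 13.8% of the 12188 genes tested and 10.6% of all listed genes. After each library was rescaled to a common total this count was 3. By the limma test 7.42% of genes were called lower in macrophages and 20.2% differed in either direction.

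Per kilobase of exon, the members stood in the same order in monocytes as in vehicle dendritic cells. Cd209a was at 33.7 ± 30.1 CPM per kb (SD, n = 3), Cd209d at 1.60 ± 0.558, Cd209c at 1.37 ± 1.08, Cd209e at 0.331 ± 0.220 and Cd209b at 0.173 ± 0.133 CPM per kb. The spread within each of the pairs Cd209d and Cd209c, and Cd209e and Cd209b, exceeded their difference here too. Cd209a held 85.1% to 93.3% of the CPM of the 5 genes in monocytes, beside 87.2% to 92.9% in vehicle dendritic cells, in tables normalized separately. In macrophages the sum of the 5 was 1.74, 1.38 and 2.69 CPM.

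Cd209f was higher in macrophages, at 1.88, 3.23 and 4.30 CPM against 0.141, 0 and 0.828 CPM in monocytes. Its log2 change was 1.65 ± 0.35, higher in 3 of 3 libraries, as for the 20.4% of genes tested that were higher in macrophages without overlap. It passed the filter through macrophages alone, so its values are given as a description. Its call in the limma fit was lost with quantile normalization. Cd209g overlapped between the groups, at 0.151, 0.801 and 0.622 CPM in macrophages and 0.212, 0 and 0.316 CPM in monocytes.

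**Figure D4:**
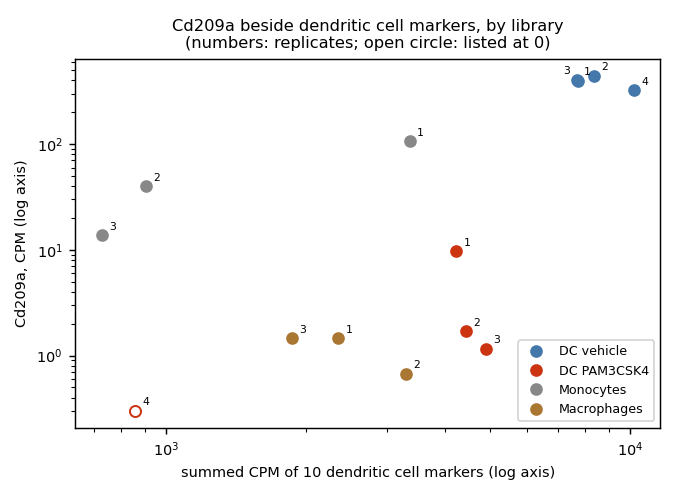
Cd209a in CPM against the summed CPM of 10 dendritic cell markers in each library, both on log axes, with replicate numbers beside the points and an open circle for the library listed at 0. Monocyte replicate 1 is the highest monocyte library on both axes. PAM3CSK4 replicates 1 to 3 lie at 4222 to 4883 CPM of markers with under 10 CPM of Cd209a. Cd74 and H2-Ab1 make up most of the marker sum in vehicle dendritic cells. Dendritic cells and the other populations come from tables normalized separately.

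Within 300 kb of a member 24 other genes are listed in the dendritic cell table, of which 15 were tested, and 1 rose (Cd209f) and 3 fell, where 2.82% of all genes tested rose and 2.29% fell. All 3 lie beside Cd209a, on the side away from the other members. Clec4g, which encodes the lectin LSECtin, starts 28.3 kb from the start of Cd209a. It was at 4.60, 2.80, 2.5 and 3.19 CPM with vehicle and at 0.458, 0.142, 0.0330 and 0 CPM with PAM3CSK4 (log2 change -1.88 ± 0.25). Fcer2a, the low-affinity IgE receptor CD23 and itself a C-type lectin, had a log2 change of -1.35 ± 0.25. Clec4g and Fcer2a passed the filter through their vehicle libraries alone, so their values are a description and nothing is read from their calls. The call of Fcer2a was lost without vehicle replicate 2. Trappc5, a subunit of a vesicle trafficking complex, went from 61.3 ± 12.5 to 22.7 ± 5.73 CPM, a log2 change of -1.40 ± 0.24 (adjusted p = 0.0086, limma). The median log2 change of the 15 was -0.26.

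The other 11 tested neighbours, Pex11g, Zfp358, Mcoln1, Pnpla6, Xab2, Pet100, Stxbp2, Mcemp1, Fcor, Evi5l and Map2k7, did not pass, with log2 changes from -0.72 (Mcemp1) to 0.20 (Pet100). Tex45, C330021F23Rik, Camsap3, Pcp2, Retn, Rprl3, Cd209g, Prr36 and Lrrc8e were under the filter. Between macrophages and monocytes 15 neighbours were tested. Camsap3, which binds microtubule ends, and Cd209f were higher in macrophages. Both passed the filter through macrophages alone, so nothing is read from their calls, which were lost with quantile normalization. Mcemp1, a mast cell and myeloid membrane protein, was lower (log2 change -2.95 ± 0.37, adjusted p = 0.00019, limma). Fcer2a and Trappc5 did not pass there, and Clec4g was under the filter.

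**Figure D5:**
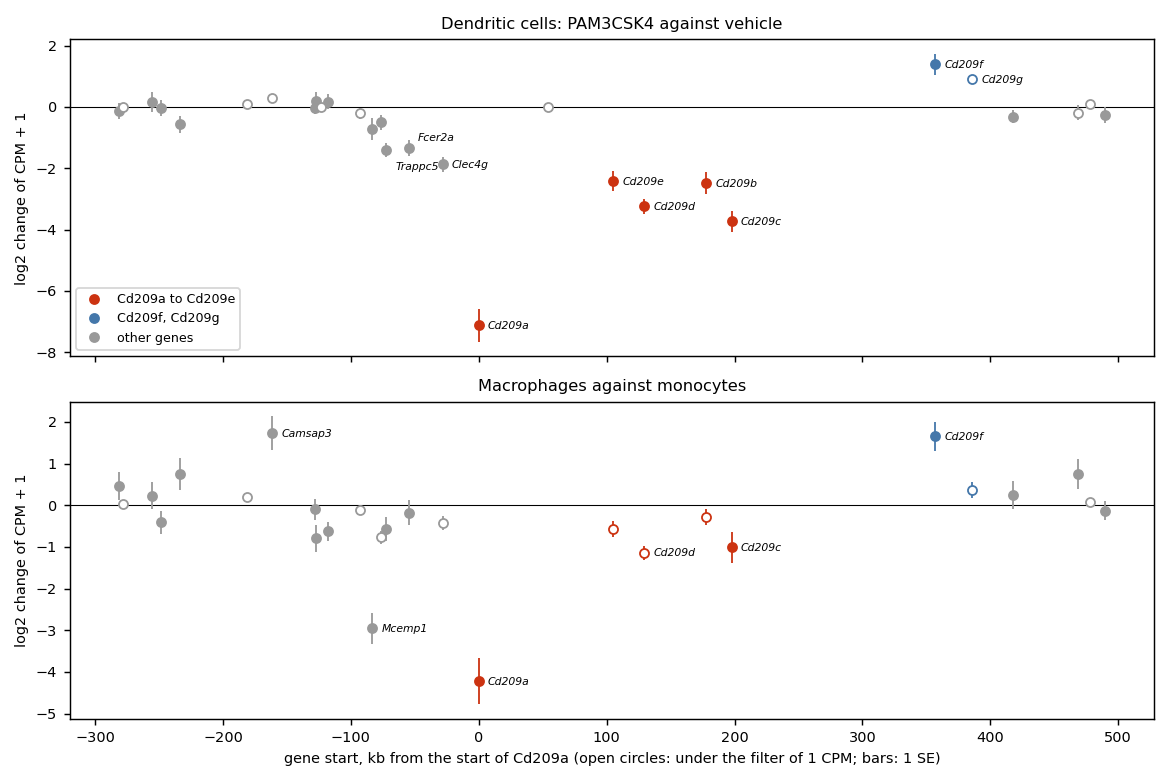
Log2 change of CPM + 1 of each listed gene within 300 kb of a member, against the distance of its start from that of Cd209a in kb, for PAM3CSK4 against vehicle in dendritic cells (top) and for macrophages against monocytes (bottom). Bars are 1 SE and open circles are genes under the filter; members are red, Cd209f and Cd209g blue. In the top panel the lowest points are the 5 members, followed by Clec4g, Trappc5 and Fcer2a, and the highest are Cd209f and Cd209g.

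Other C-type lectins of myeloid cells went both ways after PAM3CSK4. Of 42 listed, 32 were tested, and 3 rose and 9 fell, where 2.82% of all genes tested rose and 2.29% fell. The median log2 change was 0.00 beside 0.20 over all genes. These counts include Cd209f, Clec4g and Fcer2a, already given as neighbours. Those genes, Mgl2 and Cd69 would not have passed the filter without the group where they were high, so nothing is read from their calls. Mgl2, a galactose-type lectin, was at 174, 106, 37.6 and 102 CPM with vehicle and at 0.733, 0.717, 0.371 and 2.33 CPM with PAM3CSK4 (log2 change -5.60 ± 0.42). Its relative Clec10a (log2 change -4.27 ± 0.42) and Clec7a, the beta-glucan receptor Dectin-1 (-2.19 ± 0.29), also fell, with adjusted p of 0.00030 and 0.0018 in the limma fit. Cd72 (log2 change 3.07 ± 0.37), an inhibitory lectin best known from B cells, rose, with an adjusted p of 0.0011 in the same limma fit. The activation marker Cd69 (2.33 ± 0.29) was higher too, given as a description. Cd93 (0.05 ± 0.44) and Clec4a1 (1.31 ± 0.43), the most abundant that did not pass, had groups that overlapped. With 1 library left out, 2 to 7 of the list rose and 6 to 10 fell.

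Of 25 genes tied to CD209 signalling and its ligands that were tested with limma in dendritic cells, 1 rose and 0 fell, a share near that of all genes tested (2.82% higher, 2.29% lower), while 5 were higher and 2 lower at an unadjusted p under 0.05. Itgam, the CD11b chain of the Mac-1 integrin, rose (log2 change 1.50 ± 0.34, adjusted p = 0.027, limma), a call lost without any vehicle library or PAM3CSK4 replicate 3 and when low genes were tested too (adjusted p up to 0.10). Lsp1, a cytoskeletal protein that binds DC-SIGN, had a log2 change of -1.43 ± 0.44 with adjusted p = 0.078 (limma), and the acetyltransferase Ep300 had -0.09 ± 0.21. In macrophages 1 of 25 was higher and 7 were lower than in monocytes, beside 12.8% and 7.42% of all genes tested. Fcer1g, the ITAM adaptor chain of many lectin receptors, was at 29.6 ± 6.23 against 133 ± 7.46 CPM (log2 change -2.15 ± 0.24). Card9, the adaptor downstream of Syk-coupled lectins (-2.08 ± 0.35), the adhesion receptor Ceacam1 (-1.76 ± 0.27), Itgam (-1.80 ± 0.29) and the adaptor Gab2 (-1.44 ± 0.25) were also lower.

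Among 28 genes for cytokine receptors, kinases and transcription factors linked to the expression of DC-SIGN or to dendritic cell identity, 1 rose and 5 fell after PAM3CSK4. Of all genes tested, 2.82% were called higher and 2.29% lower. Il13ra1, a receptor chain shared by IL-13 and IL-4, was at 38.7, 55.9, 98.5 and 38.6 CPM with vehicle and at 21.5, 12.3, 10.1 and 5.87 CPM with PAM3CSK4 (log2 change -2.15 ± 0.38, adjusted p = 0.0097, limma). Its groups did not overlap, and the call held without any 1 library but was lost when low genes were tested too (adjusted p = 0.065, limma). Irf4, a partner of PU.1 at ETS-IRF elements, was at 87.7, 102, 117 and 96.9 CPM with vehicle and at 57.0, 24.03, 29.2 and 4.53 CPM with PAM3CSK4 (log2 change -2.19 ± 0.54, adjusted p = 0.039, limma). The kinase Tyk2 (-0.96 ± 0.21) and the transcription factors Klf4 (-1.10 ± 0.25) and Zbtb46 (-1.68 ± 0.39) fell and Ets1 (1.67 ± 0.38) rose. The calls of Irf4, Tyk2, Klf4, Zbtb46 and Ets1 were each lost without any of 4 to 6 of the 8 libraries, with adjusted p up to 0.11 (Irf4, limma), and those of Irf4, Klf4, Zbtb46 and Ets1 also when low genes were tested too, with adjusted p up to 0.13 (Irf4, limma). Vehicle replicates 2 and 4 were such a library for all 5 genes, vehicle replicate 1 for all but Klf4, vehicle replicate 3 for all but Tyk2, PAM3CSK4 replicate 2 for all but Ets1, and PAM3CSK4 replicate 3 for Irf4, Tyk2 and Zbtb46. With 1 library left out 0 to 3 of this list rose and 1 to 6 fell, the fewest (0 and 1) without vehicle replicate 2 and without vehicle replicate 4. Irf8 (-0.52 ± 0.41) and Nfkb1 (-0.42 ± 0.33), the most abundant that did not pass, had adjusted p of 0.45 each.

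Between macrophages and monocytes, 4 of these 28 genes were higher and 10 lower, where 12.8% of all genes tested were called higher and 7.42% lower. Klf4, a factor of monocyte differentiation, was at 17.3 ± 1.34 against 206 ± 47.8 CPM in monocytes (log2 change -3.47 ± 0.25), and Ets1 at 139 ± 49.3 against 6.85 ± 3.98 CPM (4.21 ± 0.37). The GM-CSF receptor chain Csf2ra (-1.93 ± 0.30), Cebpb (-2.20 ± 0.44) and Il13ra1 (-1.68 ± 0.35) were lower and Jak3 (1.53 ± 0.31) was higher. All 6 kept their calls without any 1 library. Of the 41 lectins listed in that table, 30 were tested, and 8 were higher and 13 lower in macrophages, beside the same shares over all genes. Ly75 (DEC-205), Klrb1b and Cd72 were among the higher and Clec7a, Clec4a3 and Clec4a1 among the lower, and Clec10a was lower at 2.08 ± 0.951 against 32.6 ± 22.0 CPM. Klrb1b and Cd72 would not have passed the filter without their macrophage libraries, so nothing is read from their calls. In these counts that also holds for Cd209f, Klrd1 and Selp, and for Clec4b1 without its monocyte libraries.

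The genes whose levels ran closest to Cd209a over the 8 dendritic cell libraries were Skint3 (Pearson r = 0.996 on log2 values), Hpgd (0.994), Clec10a (0.991), Abca6 (0.986), 2310015A10Rik (0.986) and Dapk1 (0.985). Hpgd encodes the enzyme that starts prostaglandin breakdown, and was at 49.6, 56.0, 80.3 and 48.6 CPM with vehicle and 5.14, 2.41, 2.41 and 0.965 CPM with PAM3CSK4. Among the other members, Cd209d came at rank 9 (r = 0.982), Cd209c at rank 45 (0.958), Cd209e at rank 90 (0.937) and Cd209b at rank 157 (0.911). All these genes share the gap between the 2 groups and the same 8 libraries, so the values describe likeness only. Over the 6 monocyte and macrophage libraries the closest were Ifnar1 (0.994), Lipa (0.993), Fam49a (0.990), Clec10a (0.987), Ehd4 (0.986) and Sla (0.985). Clec10a was among the 6 closest in both tables.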

How the data were processed

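The authors' values are gene-level CPM in 2 tables whose names say FPKM, 1 of dendritic cells and 1 of monocytes and macrophages. The unit was read from the values: 66.3% to 90.9% of low values (up to 50 steps) lay within 0.05 of a whole multiple of 1 step per library, against at most 11.6% with a step 7% longer. With that step the share was 76.2% to 80.2% for the third of genes with the shortest span and 58.0% to 61.0% for the longest in the first table, and 86.0% to 90.0% and 91.0% to 93.0% in the second. If 1 step is 1 read, 1 CPM stood for 28.2 to 75.2 reads. Too few values were whole for a count test. The added 0.0001 in each cell was subtracted, and a value listed at 0 is that lowest value. Per the submitters' processing notes, STAR 2.5.3a, Partek and build mm10 were used; the sources used here do not give their roles or the annotation, strand setting and filters. Libraries were made after ribosomal RNA depletion, per the labels' protocols. Listed genes held 350365 to 578709 CPM per library, and 0 pairs of libraries were identical.

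Groups and replicate numbers came from the labels. A further 3 columns of the second table name dendritic cells without a treatment and were not used, so the planned test of dendritic cells against the other populations was not run. The planned test of Cd209c in that table is not given, since it passed the filter only through monocytes. For a like reason no p-value is given for Cd209f, for Clec4g, Fcer2a, Mgl2 and Cd69 in dendritic cells or for Camsap3 in macrophages. Each table was fitted on its own with limma 3.58.1 in R 4.3.3 (eBayes with trend, two-sided) on log2(CPM + 1), with Benjamini-Hochberg adjustment over all genes at 1 CPM in at least 4 (dendritic cells) or 3 libraries and a threshold of 0.05. The script was tested on simulated data. Exon lengths came from GENCODE, and promoters from RefSeq. Alternatives covered the pseudocount, filter, scaling, replicate block and each library left out. The 5 members and all gene lists were chosen with earlier results of these data known. Named are all members and listed neighbours, up to 6 called genes per list by p with up to 2 abundant uncalled ones, the 6 genes most like Cd209a, and marker genes that bear on a library; 1 gene of a list is not reported here.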

Additional observations from a re-analysis of the deposited data

Results flagged for a closer look

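In 2 of the 14 groups of 4 libraries examined (7 Cd209 genes in 2 dendritic cell groups), 1 library met Dixon's criterion at the 95% level for a value apart from the rest, and chance alone marks about 1 group in 20. Cd209b was at 0.0463 CPM in PAM3CSK4 replicate 1 and listed at 0 in the other 3 PAM3CSK4 libraries, where any value above 0 meets the criterion; it is about 3 reads and lies under what a count of 0 allows in replicates 2 and 3 (0.106 and 0.0991 CPM). Cd209c was at 37.2 CPM in vehicle replicate 1, and the gap to the next library was 0.983 of the range of the group.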

How the results depend on the processing

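No log2 change of a member reversed under any setting run. With pseudocounts of 0.1 and 5 the changes after PAM3CSK4 were -8.32 and -5.73 for Cd209a, -5.39 and -0.98 for Cd209b, -5.29 and -2.08 for Cd209c, -5.22 and -1.59 for Cd209d and -4.31 and -1.04 for Cd209e. Between macrophages and monocytes they were -2.88 for Cd209a (pseudocount 5), -1.33 and -0.067 for Cd209b, -1.80 and -0.38 for Cd209c, -3.31 and -0.33 for Cd209d, -2.12 and -0.14 for Cd209e. Quantile normalization moved Cd209c there to -1.60, and the cause was not tested; that scaling could not be computed for the 3 members under the filter. Genes changed by PAM3CSK4 numbered 582 (321 higher, 261 lower), 166 with no filter, and 184 (without vehicle replicate 2) to 979 (without PAM3CSK4 replicate 1) with 1 library left out. The split into higher and lower moved with scaling: 276 and 390 after rescaling totals, 208 and 487 after median centring and 237 and 438 after quantile normalization, against 1564 and 904 for macrophages as deposited, where the 3 scalings gave 2067 and 767, 1370 and 1303, and 1004 and 1238. With the replicate number as a replicate block 976 genes changed after PAM3CSK4 (649 higher, 327 lower) and 2609 between macrophages and monocytes. Same-numbered libraries share only a number: their deviations correlated at 0.033, 0.29, -0.115 and 0.3 in dendritic cells, where not every library was closest to its own number, and at 0.183, 0.084 and 0.115 in the other table, where each was, a hint from the data and not the design. Of the values of single genes named, 813 kept their side of the threshold under the alternatives and 129 fell short of it. Depth limits the lowest members: 3 reads stood for 0.0399 to 0.106 CPM.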
